A study of Drosophila melanogaster with 12 samples.

Results

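Transposable elements (TEs) are DNA sequences that can move or copy themselves within a genome, and 280 annotated TE insertions abundant as RNA in control *Drosophila melanogaster* larvae are described here. They were chosen from 3840 TE insertions in a table of 41081 transcripts and insertions, by a mean normalized count of at least 500 over the 6 control libraries. The rule left out 10 insertions of the copia family, whose control means ran from 9999 to 18522. The libraries come from pools of male and female third-instar larvae carrying *ISWI* mutations or none, sequenced after removal of ribosomal RNA. Mutant larvae carried the alleles ISWI1 and ISWI2 over each other in a yw strain and were picked as larvae without the GFP of the CyO balancer chromosome. Control larvae were wild type (+/+). The 12 libraries form 4 groups of 3, mutant females, control females, mutant males and control males. All larvae were whole animals raised at 25 °C. The strain of the mutants and their *ISWI* alleles change together, so the effects of strain and mutation cannot be told apart. The labels do not state whether the pools of a group came from separate crosses, and p-values then measure only the spread between these libraries.

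ISWI is the ATPase subunit of several chromatin remodeling complexes, which slide and space nucleosomes along DNA. Retrotransposons copy themselves through an RNA, which is packed and reverse transcribed. Those with long terminal repeats (LTRs) fall into gypsy-type, copia-type and BEL-Pao-type elements, and those without LTRs resemble the LINE elements of mammals. DNA transposons move as DNA, and INE-1 is a short, Helitron-like element present in many copies in fly genomes. Many insertions of a family are nearly the same in sequence. RNA from any of them, or from a copy that the reference genome lacks, can be counted on others, so insertions of a family are not independent measurements. In whole larvae, fewer cells that transcribe an element and less RNA per cell cannot be told apart.

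The mean level over the control libraries chose the members, and these levels are given as a description. They ran from 505 to 23968 normalized counts with a median of 958, and 136 insertions were at 1000 or more. Just inside the limit were Juan{}83 at 505.1 and roo{}911 at 508.6, and just outside it were opus{}127 at 499.97 and roo{}78 at 494.5. The 280 insertions belonged to 41 of the 153 TE families in the table. Gypsy-type elements gave 101 insertions and BEL-Pao-type elements gave 100, 86 of which were roo. LINE-like elements gave 36 insertions, copia-type elements 23, INE-1 8 and DNA transposons 6, and 6 had no class. All 280 passed the filter on low values.

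Family membership did not follow the number of copies. The members held 25 of 28 blood insertions and 9 of 10 Transpac insertions in the table, but only 8 of 1188 INE-1 insertions. The highest control mean was that of copia{}840 (FBti0018969-RA), with 63584, 46888 and 40526 normalized counts in mutant females, against 26067, 25812 and 30026 in control females. Next came RR51475, a TE row without a family name, and INE-1{}4485 (FBti0062546-RA). INE-1{}4485 had 18573, 19249 and 18019.8 in mutant females, against 16284, 17366 and 5446 in control females. In males it had 25219, 10364 and 17519.7 in mutants, against 19648, 6903 and 19177 in controls. Its groups overlapped in males, and 1 control library of each sex lay far below the other 2.

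Each library held between 89290368 and 119202607 reads, recovered from the normalized counts. The members took 1.76, 1.46 and 1.23% of the reads of the mutant female libraries, against 0.618, 0.613 and 0.725% of those of control females. In males they took 2.81, 3.55 and 1.57% in mutants, against 0.607, 0.743 and 0.392% in controls. Every mutant library thus lay above every control library of its sex. Summed normalized counts of the members were 1616252 ± 345067 in mutant females and 604078 ± 39713 in control females, and 2398614 ± 589894 in mutant males and 504388 ± 56040 in control males (SD, n = 3 each). Of all reads on TE insertions, the members held between 58.3% and 68.3% in each library.

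Most of the higher sum came from the copia-type insertions. They summed to 1400259, 884169 and 810166 normalized counts in mutant females, against 183681, 183549 and 252299.6 in control females. In males they summed to 1972997, 1949462 and 1068874 in mutants, against 185198, 139677 and 142480.2 in controls. The means differed by 4.995 times in females and 10.7 times in males. Gypsy-type insertions were 1.66 times as high in mutant females as in control females, and 2.05 times as high in mutant males as in control males. BEL-Pao-type insertions summed to 66596 ± 15903 in mutant females and 108888 ± 4148 in control females, and to 94374 ± 30515 in mutant males and 87233 ± 26467 in control males (SD, n = 3 each). In males the BEL-Pao-type sums of mutants and controls overlapped.

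**Figure D1:**
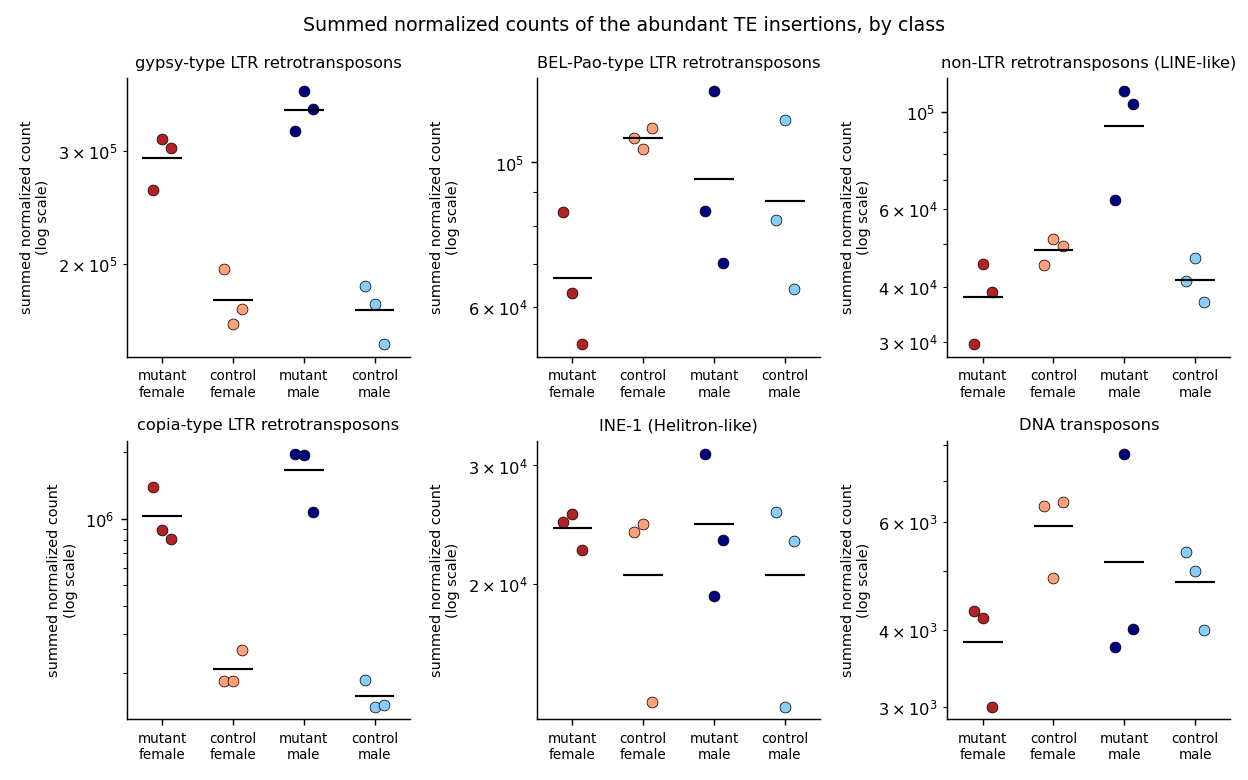
Summed normalized counts (log scale) of the abundant TE insertions of 6 TE classes, 1 point per library, with a line at the mean of the 3 libraries of each group. The copia-type sums of all mutant libraries lie between 810166 and 1972997, and those of all control libraries between 139677 and 252300, while the BEL-Pao-type sums of mutant and control males overlap.

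A different picture came from the single insertions. In females, 43 insertions were higher in mutants than in controls and 58 were lower, at an adjusted p under 0.05 (limma on log2(normalized count + 1), adjusted by Benjamini-Hochberg over all 35284 features tested). Over all features 7.12% were higher and 5.68% lower. The shares were 5.91% and 9.71% for features other than TE insertions with a control mean of at least 500. For the members they were 15.4% and 20.7%. The median log2 fold change was -0.65 over the members and 0.00 over all features. All 3 mutant female libraries lay above the control females for 55 members and below them for 164, where the shares over all features were 17.5% and 17.9%.

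In males, 49 insertions were higher in mutants than in controls and 27 were lower. Over all features 7.11% were higher and 9.12% lower, and among abundant features other than TE insertions 5.22% and 12.5%. For the members the shares were 17.5% and 9.64%. Here the members' median log2 fold change was 0.30, against -0.10 over all features. The mutant male libraries all lay above the control males for 59 members and all below them for 48, where the shares over all features were 14.5% and 19.8%.

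These comparisons use the control libraries that also chose the members. For 41 members 1 control group averaged under the limit, and the other brought them over it. Calls of a fall from that other group are counted here but are a description. When members were chosen on control males alone, 275 insertions qualified, and 58 were higher and 54 lower in mutant females than in control females, with a median of -0.55. When they were chosen on control females alone, 292 qualified, and 48 were higher and 28 lower in mutant males than in control males, with a median of 0.29. The count of lower insertions in females moved when a library was left out, between 31 without control female 1 and 65. It was 33 without control female 2, 33 without control female 3 and 37 without mutant female 1.

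No insertion was called in opposite directions in the 2 sexes. There were 39 insertions higher in mutants of both sexes and 27 lower in mutants of both sexes. A further 31 were lower in females alone at this threshold, 4 higher in females alone and 10 higher in males alone, and 169 passed in neither sex. The shares of all features with these joint outcomes were not computed. Among the 39 were all 16 flea insertions and among the 27 all 11 HMS-Beagle insertions, and insertions of a family are not independent. By sign, called or not, 73 insertions were higher in mutants of both sexes, 93 were lower in both, 108 were lower in females and higher in males, and 6 were the reverse. Most of the 108 were roo. Of the 86 roo insertions, which moved together, 85 were negative in females and 79 positive in males. Shares of all features by joint sign were not computed either.

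**Figure D2:**
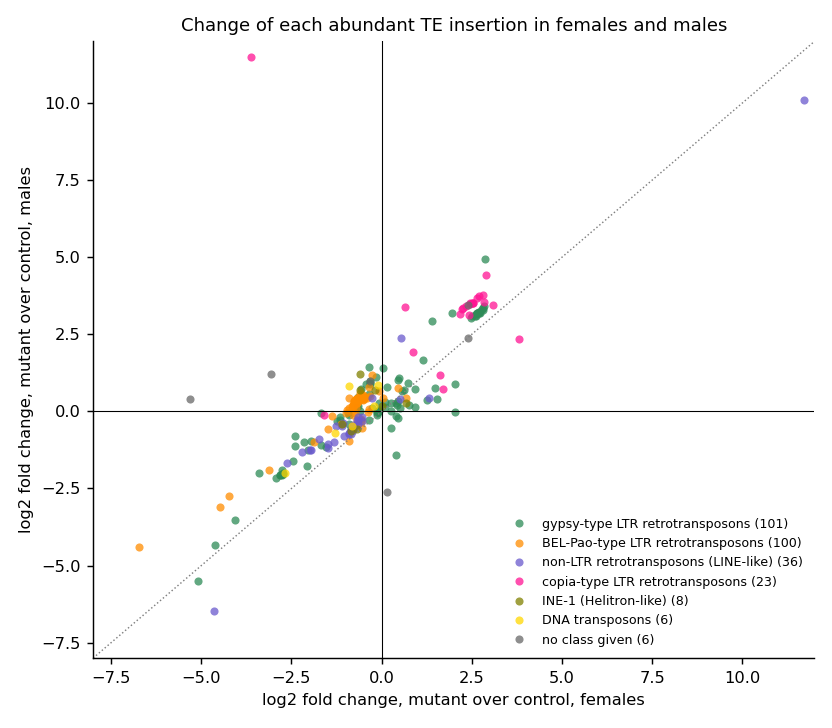
Log2 fold change of each of the 280 TE insertions, mutant over control, in females (horizontal) and males (vertical), colored by TE class with the number of insertions in brackets; the dotted line marks equal change. Of the 23 copia-type insertions 21 lie right of zero in females and 22 above zero in males, and of the 100 BEL-Pao-type insertions 97 lie left of zero in females and 81 above zero in males.

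The copia family, an LTR retrotransposon whose RNA is packed into virus-like particles, kept 21 insertions among the members. Of these, 18 were called higher in mutant females and 17 in mutant males, and none was called lower. The median log2 fold change was 2.46 in females and 3.47 in males. Without a call, copia{}1684 had 989, 616 and 687 normalized counts in mutant females, all below the 1462, 5478 and 1467 of control females. The insertion copia{}1467 (FBti0019469-RA) had 61124, 47711 and 37235 normalized counts in mutant females, against 6514, 6174 and 7937 in control females (log2 fold change 2.80 ± 0.25 SE, adjusted p = 7.03e-05). Its values in males were 84371, 87803 and 52506 in mutants, against 6379, 5070.2 and 4539 in controls (log2 fold change 3.79 ± 0.25 SE, adjusted p = 7.74e-06). The groups did not overlap in either sex, and mutant male 3 was the lowest of the mutant males.

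Several copia insertions had almost the same values. In mutant females copia{}399 (FBti0019193-RA) had 78109.8, 58418 and 49172 and copia{}RR48341 had 77447, 54712 and 48627. Among the most abundant, copia{}372 rose by 2.23 in females and 3.31 in males on the log2 scale, and copia{}1466 by 2.18 and 3.16. The insertion copia{}131 rose by 2.43 and 3.13, and copia{}988 by 2.65 and 3.67. The adjusted p-values of these values lay between 9.73e-06 and 5.62e-04. The rise of copia{}840, the member with the highest control mean, was smaller, at 0.86 ± 0.25 (SE) in females with an adjusted p of 0.0476 and 1.91 ± 0.25 in males with an adjusted p of 7.62e-04.

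Other copia insertions were less even. In males, copia{}920 (FBti0020031-RA) had 111513, 113632 and 71174 normalized counts in mutants, against 4655, 7686 and 2571 in controls (log2 fold change 4.42 ± 0.44 SE, adjusted p = 1.38e-04). For copia{}910 (FBti0020021-RA) the values were 26101, 6119.7 and 10921 in mutant females, against 681, 801 and 1154 in control females (log2 fold change 3.81 ± 0.78 SE, adjusted p = 0.0102). In males it did not pass, with 13465, 8349 and 9863 in mutants, against 3127, 513 and 5199 in controls (log2 fold change 2.35 ± 0.78 SE, adjusted p = 0.0662). Control male 2 was the lowest of the control males for copia{}910, and control female 2 was the lowest of the control females for copia{}RR48399. That insertion rose by 3.09 in females (adjusted p = 0.00478) and 3.46 in males (adjusted p = 0.00239).

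The rows RR51007 and RR51475, which have no family name, held similar or larger levels. RR51007 had 74825, 55962 and 47423 normalized counts in mutant females, against 10092, 9809 and 13746 in control females, and 108845, 109344 and 63477 in mutant males, against 9823, 7849 and 7455 in control males. Its log2 fold changes were 2.40 (adjusted p = 2.59e-04) and 3.45 (adjusted p = 1.79e-05). RR51475 rose by 2.38 in females (adjusted p = 0.0181) and 2.37 in males (adjusted p = 0.0164). Mutant male 1 carried most of the level of RR51475 in males, with 149212 against 37340 and 31689 in the other mutant males, and its call in males was lost without control male 2. Its call in females was lost without control female 1, control female 2 or mutant female 1. The other 2 copia-type insertions, FBti0060280-RA and RR43316_transposable_element-RA, were higher in mutant females, and RR43316_transposable_element-RA was higher in mutant males too. One of the female calls was lost without any single female library or any single control male, and the male call without control male 1, control male 3, mutant male 1 or mutant male 2. These insertions belong to a family named by digits. Insertions of such families, and 1 Max insertion, are given in the text by their identifier in the table.

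The flea family, a gypsy-type retrotransposon, moved as a whole. All 16 of its abundant insertions were higher in mutants of both sexes, by log2 fold changes of 1.96 to 2.86 in females and 3.02 to 4.95 in males. Their summed normalized counts were 104892, 123804 and 113246 in mutant females, against 18318, 17470.1 and 17856 in control females. In males the sums were 170470.0, 191111 and 126131 in mutants, against 16684, 18106 and 15758 in controls. The control sums spanned a narrow range, and mutants lay 6.37 times above controls in females and 9.65 times in males. For flea{}1415 (FBti0019425-RA), 8642, 10673 and 9493 counts stood in mutant females, against 1354, 1322 and 1317 in control females (log2 fold change 2.84 ± 0.19 SE, adjusted p = 7.03e-06). In males the same insertion had 14266, 16150.5 and 10271 in mutants, against 1301, 1367 and 1122 in controls (log2 fold change 3.40 ± 0.19 SE, adjusted p = 2.22e-06). The count of flea insertions stayed at 15 or 16 of 16 in females and at 16 in males when any library was left out.

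Other called rises among gypsy-type insertions were scattered, and accord{}818 and FBti0019628-RA are named here after their values were seen. The insertion accord{}818 (FBti0018951-RA) had 5912, 4008 and 2663 normalized counts in mutant females, against 595, 598 and 622 in control females (log2 fold change 2.72 ± 0.28 SE, adjusted p = 1.72e-04). Among males it held 3845, 5172 and 4212 in mutants, against 558, 394 and 482 in controls (log2 fold change 3.21 ± 0.28 SE, adjusted p = 4.80e-05). The level in every mutant library was several times that in any control library. For FBti0019628-RA, a gypsy-type insertion, the log2 fold change was 1.15 in females (adjusted p = 0.0301) and 1.67 in males (adjusted p = 0.00454). Without any single mutant or control female library, it was not called in females. Another gypsy-type element had 2 of its 4 abundant insertions higher in mutant males, FBti0018871-RA and FBti0020082-RA, and none called in females. Both calls were lost without any single control female, control male 1, control male 3, mutant male 1 or mutant male 2, and 1 of them without any single mutant female or mutant male 3.

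Whole families also fell, among them HMS-Beagle, a gypsy-type element, and Max, which is of the BEL-Pao type. All 11 abundant HMS-Beagle insertions were lower in mutants of both sexes, with a median log2 fold change of -2.77 in females and -2.06 in males, and between 9 and 11 stayed called when any library was left out. Their summed normalized counts were 2582, 2848 and 2558 in mutant females, against 17078, 20093 and 19127 in control females. In males the sums were 3081, 6093 and 2567 in mutants, against 15200.1, 25314 and 11093 in controls. Mutants and controls did not overlap in either sex, and library 2 was the highest of the mutant males and of the control males.

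Within the family the falls differed in size. HMS-Beagle{}824 (FBti0018921-RA) had 46.2, 74.6 and 13.5 normalized counts in mutant females, against 762, 1218 and 843 in control females (log2 fold change -4.63 ± 0.74 SE, adjusted p = 0.00279). In males it had 20.7, 152 and 55.4 in mutants, against 1075, 1529 and 949 in controls (log2 fold change -4.34 ± 0.74 SE, adjusted p = 0.00377). HMS-Beagle{}101 (FBti0019620-RA) fell by 5.09 in females (adjusted p = 0.0258) and by 5.51 in males on the log2 scale. The insertion reached the limit of the choice through control males, with 256, 507 and 492 normalized counts in control females. Its fall in males is therefore a description. Its control values were uneven, from 71.4 to 1472 in males. Its call was lost in females without any of the 3 control females or without mutant female 2 or 3, and in males without control male 1, control male 2 or mutant male 3, with log2 fold changes between -5.41 and -4.52 in those fits.

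The 3 abundant Max insertions were lower in mutants of both sexes. One of them, FBti0063720-RA, had 103, 119 and 99.8 normalized counts in mutant females, against 1928, 1960.2 and 2177 in control females (log2 fold change -4.22 ± 0.47 SE, adjusted p = 2.98e-04). Its values in males were 155, 627 and 148 in mutants, against 1862, 1566 and 1513 in controls (log2 fold change -2.75 ± 0.47 SE, adjusted p = 0.00378). Mutant male 2 was the highest mutant library and still lay below every control. Max{}5599 (FBti0063660-RA) fell by 4.48 in females (adjusted p = 3.55e-04) and 3.11 in males (adjusted p = 0.00302). Summed over the 3 insertions, mutants held 0.0662 of the control level in females and 0.214 in males.

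Both abundant insertions of a further gypsy-type family, FBti0018861-RA and RR48369_transposable_element-RA, were lower in both sexes. For FBti0018861-RA, mutant females had 48.6, 44.7 and 57.2 normalized counts, against 768, 773 and 1015 in control females (log2 fold change -4.05 ± 0.44 SE, adjusted p = 2.54e-04). Mutant males had 46.4, 119.5 and 35.4, against 807, 757 and 511 in control males (log2 fold change -3.52 ± 0.44 SE, adjusted p = 5.99e-04). No mutant library reached the lowest control library, and the call on RR48369_transposable_element-RA in males had an adjusted p of 0.0255. One of the 2 calls in males was lost without control male 1, control male 2, mutant male 1 or mutant male 3. Among other gypsy-type elements, 2 of 3 mdg1, 2 of 2 Stalker, 1 of 2 Quasimodo and the single gypsy6 and rover insertions were lower in mutant females, and none of these passed in males. The mdg1, gypsy6 and rover calls were each lost without any of several single libraries, among them control female 1, and 1 of the 2 Stalker calls without any single control female or mutant female 3.

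**Figure D3:**
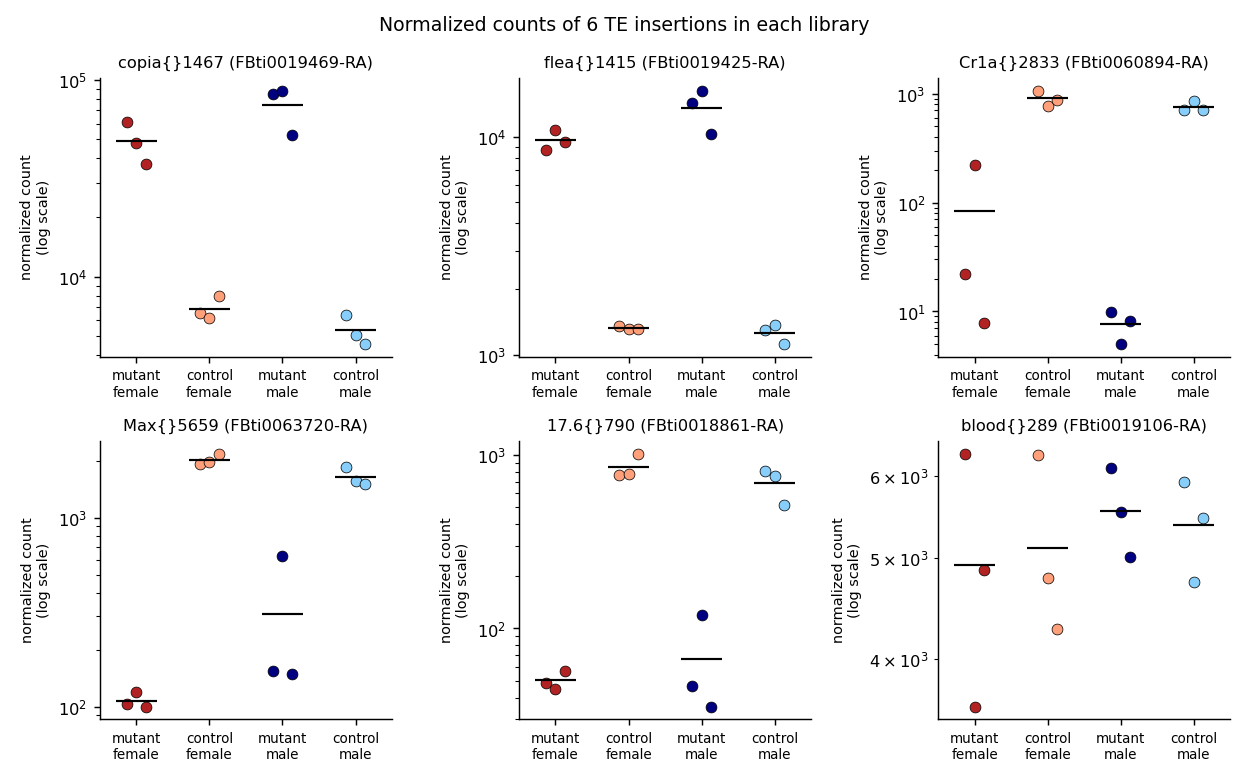
Normalized counts (log scale) of 6 TE insertions, 1 point per library, with a line at the mean of the 3 libraries of each group. In copia{}1467 and flea{}1415 the mutants lie above the controls, in Cr1a{}2833 and the Max and gypsy-type insertions FBti0063720-RA and FBti0018861-RA they lie below, and in blood{}289 mutants and controls overlap in both sexes.

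Among 36 LINE-like insertions, 23 were called lower and 1 higher in mutant females, and 8 lower and 2 higher in mutant males. Of the 23 calls in females 11 were on jockey insertions, whose number depended on single libraries as given with that family. The class sum went the other way in males. It was 62888, 111443 and 104320.5 normalized counts in mutant males, against 41205, 46391 and 37021 in control males, and no libraries overlapped. The 2 called rises, Cr1a{}1995 and R2{}RR48361, averaged 37548 and 31629 in mutant males. In females the class sum was 29617, 45070.3 and 38924 in mutants, against 44882, 51454 and 49424 in controls, and mutant female 2 overlapped the controls. Rt1b had 6 abundant insertions, of which 5 were lower in mutant females and 4 in mutant males. Their sums were 3027, 3357 and 2624 normalized counts in mutant females, against 7244, 6928 and 8929.7 in control females, and the groups did not overlap. In males the sums were 2846, 4416 and 2331 in mutants, against 5026, 4946 and 4858 in controls. All 3 mutant male sums were below the controls.

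The largest fall of Rt1b was that of Rt1b{}71 (FBti0019590-RA). It had 225, 234 and 241 normalized counts in mutant females, against 1384, 1326 and 1662 in control females (log2 fold change -2.63 ± 0.20 SE, adjusted p = 1.93e-05). Among males it held 267, 343 and 276 in mutants, against 970.1, 892 and 952 in controls (log2 fold change -1.67 ± 0.20 SE, adjusted p = 4.17e-04). The libraries of each group lay close together, and the groups were far apart. All 3 Juan insertions were lower in mutant females, by 1.08 to 1.74 on the log2 scale, and none was called in males. Juan{}83 reached the limit through control females (mean 614, against 396 in control males), so its fall in females is a description. Only 1 of the 3 Juan calls remained without control female 1 or without mutant female 3.

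Jockey gave 19 insertions, all with a negative log2 fold change in both sexes. The median was -0.80 in females and -0.58 in males. In females 11 passed the test, but the count fell to 1 without any single control female, without mutant female 1 or without mutant female 2. It was 3 without control male 1 and 5 without control male 3 or without mutant male 1, and edgeR on the recovered reads called 2. In males 1 passed, and this count ran from 0 to 4 over the libraries left out. It was 0 without control male 1, control male 2, mutant male 1 or mutant male 3. The sums were 15392, 12285 and 20178 normalized counts in mutant females, against 23791, 30896 and 28668 in control females. In males they were 15798, 17424 and 14442 in mutants, against 22599.8, 26683 and 20697 in controls. Mutants lay below controls in every library of both sexes. The insertion called in both sexes was jockey{}838 (FBti0018990-RA), with -1.48 ± 0.26 (SE) in females (adjusted p = 0.00532) and -1.07 ± 0.26 in males (adjusted p = 0.0225).

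The 5 abundant Cr1a insertions went both ways. Cr1a{}2833 (FBti0060894-RA) had 21.9, 219 and 7.85 normalized counts in mutant females, against 1054, 773 and 881 in control females (log2 fold change -4.66 ± 0.93 SE, adjusted p = 0.00929). In males it had 9.87, 5.02 and 8.25 in mutants, against 712, 857 and 703 in controls (log2 fold change -6.48 ± 0.93 SE, adjusted p = 0.00141). Mutant female 2 was far above the other mutant females and still below every control. By contrast, Cr1a{}1995 (FBti0060056-RA) had 2424, 3107 and 4923 in mutant females and no read in any control female. With the limit that a count of 0 allows set at 3 reads in a library, the mean of the mutant females was at least 1330-fold higher. The control females' 0 makes the fitted fold change depend on the pseudocount (adjusted p = 0.00686). Its values in males were 23522, 42238 and 46885 in mutants, against 0.938, 3770.3 and 3.76 in controls (adjusted p = 0.0127). Control male 2 alone put this insertion above the limit of the choice, and edgeR on the recovered reads did not call it in either sex. The other 3 Cr1a insertions were lower in mutant females, and 2 of them in mutant males. The number of Cr1a insertions called lower in females, 4 with Cr1a{}2833, was 2 without control female 1, control female 2 or mutant female 3.

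R2 inserts into the genes for ribosomal RNA, and its single row, R2{}RR48361, is named here after its values were seen. It had 16149, 41358 and 37380.0 normalized counts in mutant males, against 7491, 3828 and 6317 in control males (log2 fold change 2.37 ± 0.54 SE, adjusted p = 0.0157). In females it had 4679, 21274 and 7208 in mutants, against 6668, 6895 and 5222 in controls (log2 fold change 0.53 ± 0.54 SE, adjusted p = 0.589). The groups overlapped in females and not in males, and the call in males was lost without control male 2 or mutant male 3. HeT-A, an element that maintains telomeres in flies, had 1357 ± 194 in mutant females and 549 ± 108 in control females, and 952 ± 490 in mutant males and 630.0 ± 91.1 in control males (SD, n = 3 each). It passed the test in neither sex.

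**Figure D4:**
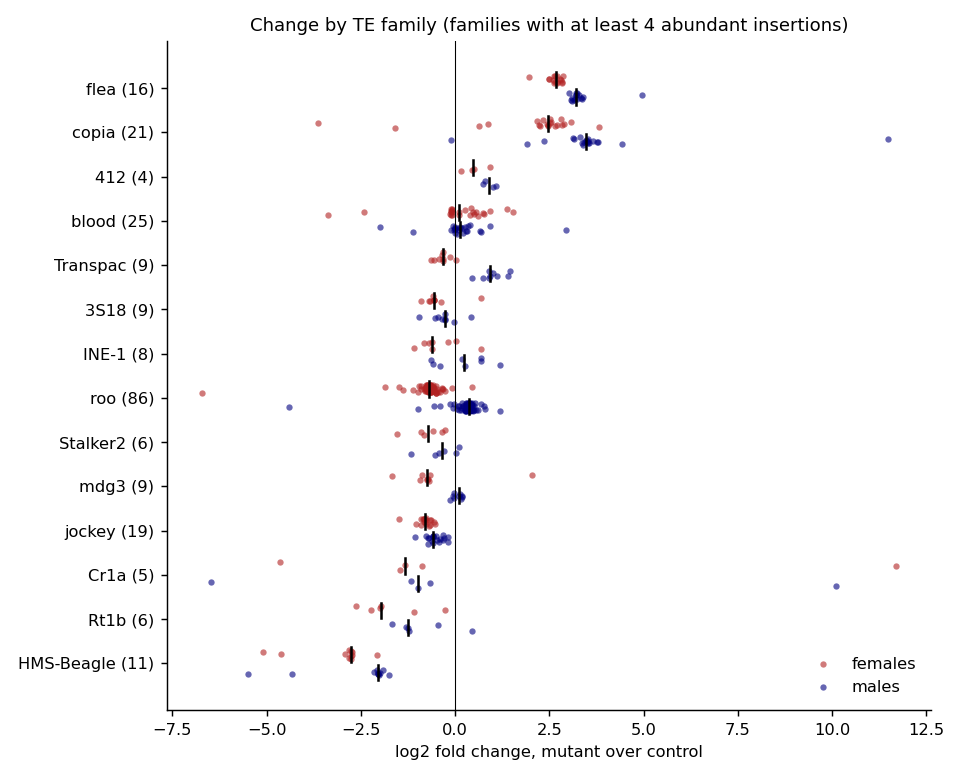
Log2 fold change, mutant over control, of each insertion of the TE families with at least 4 abundant insertions (number in brackets), with females above males in each row and a black bar at the family's median. All flea insertions lie right of zero and all HMS-Beagle and jockey insertions left of it in both sexes, while roo, Transpac, mdg3 and INE-1 have negative medians in females and positive ones in males.

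The roo family made up 86 of the 280 members, drawn from 133 roo insertions in the table. Its summed normalized counts were 72110.0, 49768 and 43016 in mutant females, against 86880.1, 84774 and 90779 in control females. In males they were 71026, 103996 and 56858 in mutants, against 59659, 86063 and 44532 in controls. Mutant females lay below every control female, and the males overlapped. The median log2 fold change was -0.68 in females and 0.36 in males. Only 5 roo insertions were called lower in females and 1 in males, but 78 had all 3 mutant females below all control females. Over all features the share with this order was 17.9%. The roo insertions moved together, with a median pairwise correlation of 0.978 for their deviations from group means, so the 78 are not independent results. The number of roo calls in females ran from 1 to 7 when a library was left out. It was 1 without mutant female 3, 2 without any single control female or mutant female 2, and 3 without control male 1, mutant female 1 or mutant male 1.

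The most abundant roo insertion, roo{}1708 (FBti0059769-RA), is given as an example chosen after its values were seen. It had 5249, 3640.4 and 3139 normalized counts in mutant females, against 6122, 6013 and 5686 in control females (log2 fold change -0.60 ± 0.34 SE, adjusted p = 0.299). Among males it held 5195, 7537 and 4010.5 in mutants, against 4071, 5155 and 2149 in controls (log2 fold change 0.60 ± 0.34 SE, adjusted p = 0.269). It was not called in either sex. The insertion roo{}RR49033 stood apart from its family. It had 9.72, 2.29 and 4.49 in mutant females, against 585, 615 and 639.6 in control females (log2 fold change -6.73 ± 1.07 SE). This insertion reached the limit of the choice through control females, so its fall in females is a description. In males it had 150.1, 3.34 and 11.8 in mutants, against 392, 589 and 338 in controls (log2 fold change -4.40 ± 1.07 SE, adjusted p = 0.0206). Its call in males was lost without control male 1, control male 2 or mutant male 3, with log2 fold changes between -4.46 and -4.06. The 9 insertions of 3S18, also of the BEL-Pao type, had medians of -0.56 in females and -0.28 in males, and none was called.

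**Figure D5:**
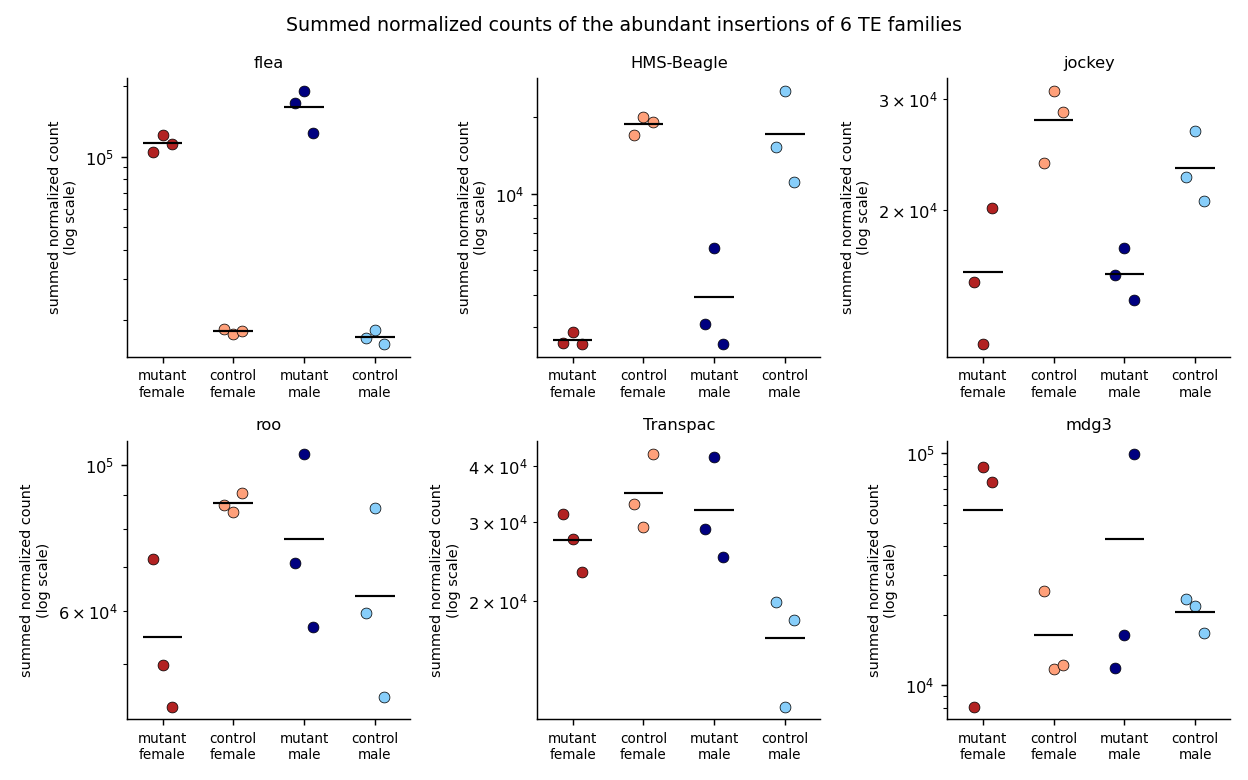
Summed normalized counts (log scale) of the abundant insertions of 6 TE families, 1 point per library, with a line at the mean of the 3 libraries of each group. Flea is higher and HMS-Beagle and jockey are lower in all mutant libraries than in the controls of the same sex, roo is lower in all mutant females than in the control females and overlaps in males, and Transpac is lowest in control males. The mdg3 sum spreads widely among mutants, as does its most abundant insertion, mdg3{}1683, alone.

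The blood family, a gypsy-type element with 25 abundant insertions, changed little as a whole. Median log2 fold changes were 0.10 in females and 0.13 in males. The 5 uncalled insertions with the smallest changes in both sexes were all blood, namely blood{}289, blood{}468, blood{}RR48384, blood{}852 and blood{}344. For blood{}289 (FBti0019106-RA), mutant females had 6301, 3601 and 4878 normalized counts, against 6278, 4793 and 4278 in control females (log2 fold change -0.07 ± 0.23 SE, adjusted p = 0.893). Mutant males had 6108, 5545 and 5012, against 5924, 4745 and 5465 in control males (log2 fold change 0.05 ± 0.23 SE, adjusted p = 0.919). Among the 5, log2 fold changes ran from -0.11 to 0.05, with standard errors of 0.23 to 0.25.

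In 3 blood insertions a difference between the female groups was called. The insertion blood{}285 had 119, 433 and 806 normalized counts in mutant females, against 4809, 3027 and 3303 in control females (log2 fold change -3.39 ± 0.72 SE, adjusted p = 0.0126). Its values did not overlap. The insertion blood{}409 was also lower in mutant females (log2 fold change -2.41 ± 0.51 SE, adjusted p = 0.012). In the other direction, blood{}356 (FBti0019163-RA) had 3975, 2133 and 3144 in mutant females, against 1039.8, 1178 and 902 in control females (log2 fold change 1.53 ± 0.30 SE, adjusted p = 0.00877). A second blood insertion was called higher in females without control female 1, control female 3 or control male 2. No blood insertion was called in males. The mdg3 family had 9 insertions and no call. In females 8 of the 9 had all 3 mutant libraries below all controls, where the share over all features was 17.9%. The family's median log2 fold change was -0.74 in females and 0.10 in males. Its insertions moved together, with a median pairwise correlation of 0.989, so the 8 are not independent results. The insertion mdg3{}1683, named after its values were seen, had 2753, 81571 and 71029 in mutant females, against 16056, 3729 and 3888 in control females, and 4035, 5642 and 94136 in mutant males, against 15587, 12557 and 11594 in control males. Its libraries differed widely within groups.

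Among DNA transposons, H{}1735 and FBti0063452-RA were lower in mutants of both sexes. H stands for hobo, an element long used in fly genetics, and the other belongs to a family related to the P element. H{}1735 had 123, 133 and 122 normalized counts in mutant females, against 754, 754 and 939 in control females (log2 fold change -2.68 ± 0.22 SE, adjusted p = 3.46e-05). Its values in males were 195, 188 and 189 in mutants, against 859, 698 and 731 in controls (log2 fold change -1.99 ± 0.22 SE, adjusted p = 2.41e-04). The groups were far apart in both sexes. The insertion FBti0063452-RA fell by 1.29 in females (adjusted p = 0.00313) and 0.69 in males (adjusted p = 0.0484), and its call in males was lost without any library except mutant male 2. Both are named because they were the only called DNA transposons. Of 8 INE-1 insertions, 2 were lower in mutant females and none was called in males, and both calls were lost without control female 1, control female 3 or mutant female 3, and 1 of them without control female 2, control male 1, mutant female 1 or mutant female 2.

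Next, the sexes were compared in control larvae. Of the 239 insertions with a mean of at least 500 in both control groups, 1 was higher and 8 were lower in control males than in control females. Over all features 9.30% were higher and 0.692% lower. The members' median log2 fold change, control male over control female, was -0.35, and 223 of 280 were negative. The control libraries compared here also chose the members. Another 6 calls, 3 higher and 3 lower, were on insertions that reached the limit through the sex in which they were high. For these 6 the difference between the sexes is given as a description, with no test. The calls were not stable. Their number, 15 over all members, was 2 without control female 3, 2 without control male 2 and 5 without control female 1. With all other single libraries left out it was at most 16.

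Of the 8 lower insertions above the limit in both control groups, 7 were Transpac, a gypsy-type element with 9 abundant insertions. Transpac{}RR48364 had 1938, 1254 and 1807 normalized counts in control males, against 3425, 3039 and 4412 in control females (log2 fold change -1.13 ± 0.25 SE, adjusted p = 0.0138). In mutants it had 4120.5, 5726 and 3440.1 in males and 4117, 3740.2 and 3158 in females. Control males were thus the lowest group, and both control groups were above the limit of the choice. Summed over the family, the counts were 19938, 11668 and 18189 in control males, against 32849, 29249 and 42512 in control females. The number of Transpac calls was 0 without control female 3, 0 without control male 2 and 2 without control female 1. Against the same control males, 6 of the 9 insertions were higher in mutant males, a number that was 1 without control male 2, 2 without mutant male 1, 2 without mutant male 2 and 3 without control male 3. No Transpac insertion was called in females.

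The insertion blood{}356 was above the limit in both control groups and was higher in control males (log2 fold change 1.29 ± 0.30 SE, adjusted p = 0.0189). It had 1636, 2918 and 3389.7 normalized counts in control males, against 1039.8, 1178 and 902 in control females. Its call was lost without control female 1, control female 3, control male 2 or control male 3, with log2 fold changes between 1.08 and 1.29. Of the 6 insertions that reached the limit through a single sex, 3 had their higher values in control males. For opus{}RR48408, of the gypsy-type element opus, the values were 973, 1683 and 407 in control males, against 245, 219 and 235 in control females. The insertion opus{}33 (FBti0019552-RA) had 807, 1341 and 392 in control males, against 258, 209 and 268 in control females, and the copia-type RR43316_transposable_element-RA had 1007, 1334 and 777 in control males, against 394, 414 and 641 in control females. Control males were above control females in every library of these 3 insertions.

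The other 3, RR48344, INE-1{}2622 and flea{}704, had their higher values in control females. RR48344 had 309, 44.6 and 26.3 normalized counts in control males, against 788, 1925 and 464 in control females. INE-1{}2622 (FBti0060683-RA) had 516, 119 and 137 in control males, against 867, 568 and 942 in control females. For flea{}704 (FBti0018958-RA) the values were 87.3, 541 and 332 in control males, against 947, 917 and 913 in control females. The row RR51093, named after its values were seen, was above the limit in both control groups and called lower in control males. It had 2164, 1382 and 1967 in control males, against 3795, 3331 and 4804 in control females (log2 fold change -1.12 ± 0.25 SE, adjusted p = 0.0154), and its call was lost without control female 3 or control male 2.

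Between mutant males and mutant females, no member passed the test, where 3.21% of all features did. At an unadjusted p under 0.05 there were 45 members, 44 of them higher in males. The smallest adjusted p was 0.179 with limma, and edgeR on the recovered reads called 0 members and DESeq2 11. The median log2 fold change, mutant male over mutant female, was 0.47 over the members and 0.09 over all features, and 251 of 280 were positive.

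The difference between the change in males and the change in females was tested as an interaction. No member passed, where 0.799% of all features did. At an unadjusted p under 0.05 (limma) there were 80 members, or 28.6%, 78 of them with the more positive change in males. Over all features the share was 11.0%, with 1114 of 3881 in that direction. Again edgeR called 0 members and DESeq2 13, and the smallest adjusted p with limma was 0.144. The median difference of the log2 fold changes was 0.85 over the members, 0.50 over the 2045 other TE insertions tested and -0.02 over all features, and it was positive for 250 of 280 members. For roo all 86 insertions had a positive difference, and 41 of them had an unadjusted p under 0.05. Transpac had 8 such insertions of 9 and copia 14 of 21. A change called in only 1 sex is therefore not shown to differ between the sexes for any member with limma.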

How the data were processed

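RNA of 12 libraries, each made from a pool of larvae, was sequenced after removal of ribosomal RNA. The authors trimmed the reads with Trimmomatic 0.39, aligned them with HISAT2 2.2.1, assembled transcripts with StringTie 2.1.5 and deposited counts normalized by DESeq2 1.32.0, a signal per transcript or TE insertion. How reads matching several insertions were assigned is not given in the sources used here. Whole reads were recovered from the smallest step of each library, and 100% of values up to 1000 reads were whole within 0.01.

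Values were tested as log2(normalized count + 1) with limma 3.58.1 in R 4.3.3, with 1 mean per group and all 12 libraries, over the 35284 features with at least 10 in at least 3 libraries. P-values were adjusted by Benjamini-Hochberg and called under 0.05. Fold changes on this scale understate those of low values. Alternatives were edgeR 4.0.16 and DESeq2 1.42.0 on the recovered reads, TMM factors, other filters and pseudocounts, only the groups compared, a replicate block, each library left out, a minimum fold, and members chosen at 1000 or on the controls of the other sex. The fit was tested on simulated data.

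The members and family lists were chosen with earlier results of these data known. Insertions named are the 10 with the highest control mean, the 5 steadiest, and examples from families. Also named are the 6 largest called rises and falls in each sex among those whose groups did not overlap. For each comparison of sexes the 4 largest called rises and falls were taken, whether or not the groups overlapped. The text says where a name was chosen after its values were seen, which also holds for blood{}285, blood{}409, H{}1735, FBti0063452-RA, HeT-A and Rt1b{}71. *ISWI* itself, tissue and sex markers, and insertion positions and sequences were not analysed here.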

Additional observations from a re-analysis of the deposited data

How the results depend on the processing

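The direction of the 33 named log2 fold changes was kept in all 683 values computed under the alternatives, and 594 of these stayed past the threshold and 89 did not. Counting members at a control mean of at least 1000, which leaves 136 members, gave 60 called and 30 lower in mutant females, 16 lower in mutant males and 9 called between control sexes. DESeq2 on the recovered reads gave 41 lower in mutant males, 25 called between control sexes, 11 between mutant sexes and 13 for the interaction; it gave no adjusted p for 3 members. Requiring 10 in every library gave 7 called between control sexes, and fitting only the groups compared gave 8 there and 1 between mutant sexes. Leaving out 1 library gave 69 to 108 called in females (37 to 44 higher, 31 to 65 lower) and 61 to 78 in males (41 to 48 higher, 19 to 37 lower). It gave 2 to 16 between control sexes, 0 to 3 between mutant sexes and 0 to 2 for the interaction. The cause of these shifts was not tested. No call of the main comparisons in females or males changed sign under any alternative.

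Deviations from group means over all features tested were compared between same-numbered mutant and control libraries. They correlated at 0.0096, 0.0007 and 0.0023 in females and at 0.0073, 0.186 and 0.077 in males. These values cannot show whether the members were paired, because no correlation was computed over the members alone. The roo and HMS-Beagle sums of mutant males and of control males were each highest in library 2 and lowest in library 3. With the replicate block, 92 of the 101 calls in females were kept and 5 added, and 72 of 76 in males were kept and 2 added. Between 89290368 and 119202607 reads per library leave counting error small at these levels, and the 3 libraries of a group limit precision more: 118 members spanned over 1 log2 unit within a group.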

Other observations

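Some abundant insertions were present in some libraries of a group and nearly absent in others. Within at least 1 group, 32 members spanned over 2 log2 units, 15 over 3 and 6 over 5. The values below were chosen after they were seen.

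The insertion copia{}466 had 108604, 0 and 0 normalized counts in mutant females, against 0, 11652 and 17635 in control females, and 155988, 153525 and 0 in mutant males, against 0, 0 and 0 in control males. It was called in no comparison, with adjusted p-values of 0.748 in females and 0.214 in males (limma). The insertion copia{}1016 had 73625, 1424 and 46490 in mutant females, against 9998, 9579 and 13535 in control females.

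Y{}6298 was abundant in 1 control library of each sex. It had 0, 0 and 0 in mutant females, against 0, 6278 and 9.16 in control females, and 35.5, 19.2 and 18.9 in mutant males, against 0, 6434 and 0 in control males. These 2 control libraries, both numbered 2, thus set its place among the members. The same 2 libraries were the lowest of their groups for H{}84, a hobo insertion, with 92.0 normalized counts in control female 2, against 986 and 1034 in the other control females, and 19.5 in control male 2, against 1102 and 766 in the other control males.

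RR51001 had 541, 30.1 and 63.6 in mutant males, against 788, 700.3 and 459 in control males, and was not called (adjusted p = 0.0596).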
